A study of Mus musculus with 9 samples.

Results

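The genes described here are 8 enzymes of glycolysis (Hk1, Gpi1, Pfkl, Tpi1, Gapdh, Pgk1, Eno1 and Pklr) together with Ldha, and they make up 9 of the 37074 gene names on a mouse expression array. The members were all non-control probes carrying one of these gene names, 31 probes in all, and each probe was followed by itself. The genes had been picked because some of their probes differed between groups on these same arrays, so the differences between groups are given for them as a description. Where member probes met the call rule that was applied to all probes, they are counted only, because the same values had chosen the genes.

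RNA came from livers of male C57BL/6N mice in 3 groups of 3 arrays each. AAV-V mice had received, by tail vein, an adeno-associated virus directed to hepatocytes that carried an empty vector, and ate a normal diet. AAV-GP73 mice had received the same kind of virus expressing GP73 (gene name Golm1), a Golgi membrane protein, and also ate a normal diet. AAV-V HFD mice had received the empty vector and ate a high-fat diet (HFD). All 3 groups therefore carried virus, and the labels give 12 months as the age of every animal, while the study counts those months from the injection. The sources used here do not give the promoter that restricts the virus to hepatocytes, the time on the HFD for these arrays without contradiction, or whether 1 array stands for 1 mouse or for a pool. Differences between arrays of a group may thus be partly technical.

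Glycolysis turns glucose into pyruvate in the cytosol through a chain of enzymes. A hexokinase traps glucose as its phosphate, an isomerase and a kinase make a sugar with a phosphate at each end, that sugar is split into triose phosphates, and these are oxidised and used to make ATP. Lactate dehydrogenase, of which Ldha encodes the A subunit, interconverts pyruvate and lactate. The adult liver uses the liver pyruvate kinase encoded by Pklr, and it can run most steps backwards to release glucose.

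Each array carried 60-base probes read in 1 colour. Of its spots, 10.2% to 10.7% were well above background in AAV-V, 16.0% to 18.4% in AAV-GP73 and 13.8% to 16.7% in AAV-V HFD, and the median signal of the 2666 probes detected on all 9 arrays was 33.1 to 38.7, 104 to 129 and 76.4 to 124 in the same order. The AAV-V arrays were thus the dimmest, and every value below was scaled to a common 75th percentile of those probes and put on a log2 scale. AAV-V and AAV-GP73 shared a slide, and AAV-V HFD had its own. Effects of the diet and of the slide cannot be told apart. The 1 probe for Golm1 was well above background on 0 of the 9 arrays, and the label AAV-GP73 could not be checked with it. All 10 hepatocyte marker genes were detected in AAV-V and AAV-GP73 and 9 of the 10 in AAV-V HFD. The summed scaled signal of 7 red blood cell marker genes was 431 to 1084 in AAV-V, 3621 to 18339 in AAV-GP73 and 729 to 1217 in AAV-V HFD. Of the 6 red cell probes tested, 5 were called higher in AAV-GP73, against 0 in AAV-V HFD. Red cells live on glycolysis, and the part of their RNA in the AAV-GP73 values below was not tested.

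Testing was limited to probes with all 3 arrays of some group well above background, 6591 of the 56605 probe names. A tested probe was called when it differed at least 2-fold with an adjusted p under 0.05 in limma. Of the 31 member probes, 18 were tested, covering 7 of the 9 genes. Detection itself separated the genes: 14 probes were well above background on all 9 arrays, 10 on none, and 3 on some arrays without filling a group (Hk1 at position 3844, Gpi1 at 1515 and Eno1 at 413). Pfkl, the liver form of phosphofructokinase, had 3 probes and Pklr had 1, and none of them was well above background on any array, so neither gene has a level here. All 7 Gapdh probes and both Ldha probes were tested, against 3 of 4 for Tpi1, 2 of 5 for Hk1, 2 of 4 for Gpi1, 1 of 2 for Pgk1 and 1 of 3 for Eno1. In whole liver, fewer cells that express a gene and less of its RNA per cell cannot be told apart.

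In AAV-GP73 against AAV-V, 8 of the 18 tested member probes were called higher, where 33.9% of all tested probes were, and 3 were called lower, where 17.9% of all were. In AAV-V HFD against AAV-V, 4 were called higher beside 25.0% of all tested probes, and 3 lower beside 16.9%. Since the genes were chosen on these contrasts, nothing is read from those shares. In AAV-GP73 against AAV-V HFD, 1 member probe was called, and 2.67% of all tested probes were called in either direction. The median log2 fold change of the members was 0.90 in AAV-GP73 against AAV-V and 0.76 in AAV-V HFD against AAV-V, and that of all tested probes was 0.64 and 0.41. The 2 sets of values share the AAV-V arrays as their control and are given side by side, since they are not independent. The members nearest to the 2-fold line in AAV-GP73 were a Gapdh probe at 1.13 inside it and an Hk1 probe at 0.92 outside it, and in AAV-V HFD a Gapdh probe at 1.01 and a Gpi1 probe at 0.96.

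**Figure D1:**
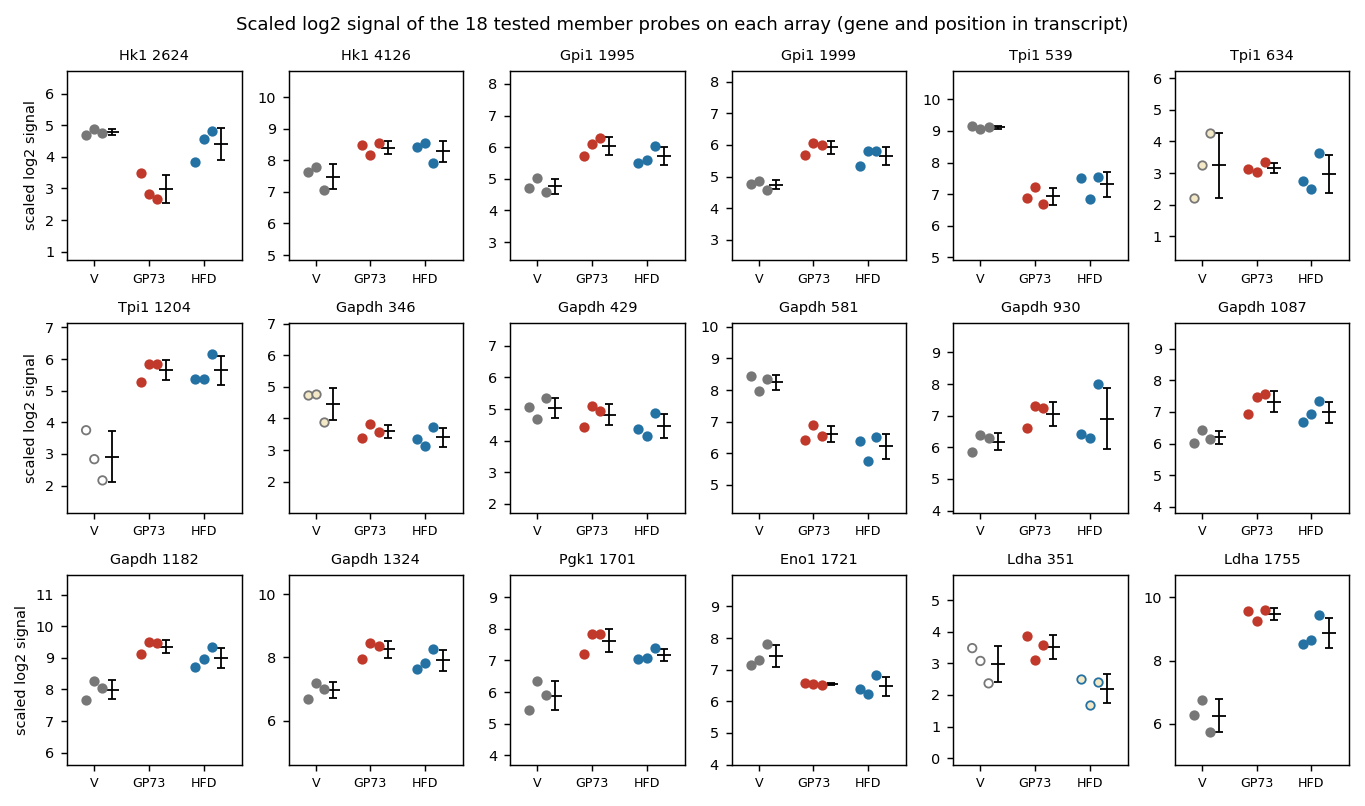
Scaled log2 signal (y axis, each panel spanning the same number of log2 units) of the 18 tested member probes on the 9 arrays, grouped as AAV-V, AAV-GP73 and AAV-V HFD (x axis), with the mean and SD of 3 arrays as a bar. Filled points stand for groups with all 3 arrays well above background, open points for groups with none, and pale points for groups in between. Ldha at position 1755 has no overlap between AAV-V and the other groups, whereas probes of Tpi1 and Gapdh move in both directions.

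In AAV-GP73, Ldha gave the largest difference among the members under the scaling used, and in AAV-V HFD it came after Tpi1 at position 1204. With the deposited log2 values Tpi1 was the larger in AAV-GP73 as well, at 3.23 beside 2.83. The Ldha probe at position 1755 of the transcript (chr7:54110937-54110996, mm9, plus strand), read 6.28, 6.77 and 5.74 in AAV-V, 9.58, 9.26 and 9.61 in AAV-GP73, and 8.54, 8.65 and 9.43 in AAV-V HFD. Every AAV-GP73 and AAV-V HFD array lay above every AAV-V array, while AAV-GP73 and AAV-V HFD overlapped each other. The difference from AAV-V was 3.22 ± 0.34 (log2, SE, n = 3 per group) in AAV-GP73, a 9.32-fold higher level, and 2.61 ± 0.34 in AAV-V HFD, a 6.12-fold higher level. Among the 6591 tested probes, 63 had a higher value in AAV-GP73, and 56 did in AAV-V HFD. Before any scaling between arrays, the Ldha signal was 29.1 to 50.8 in AAV-V, 831 to 1326 in AAV-GP73 and 604 to 703 in AAV-V HFD. As the AAV-V arrays were the dimmest, a higher unscaled signal in the other groups does not by itself give the direction. Under the 6 other scalings the value stayed positive, at 2.51 to 4.89 in AAV-GP73 and 2.00 to 3.95 in AAV-V HFD. AAV-GP73 exceeded AAV-V HFD by 0.61 ± 0.34, less than 2-fold, and the 2 groups overlapped.

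The other Ldha probe lies upstream, at position 351 (chr7:54103010-54103069, mm9, plus strand). It was well above background on 0 AAV-V arrays, 3 AAV-GP73 arrays and 1 AAV-V HFD array, at 3.48, 3.07 and 2.37, then 3.87, 3.10 and 3.59, then 2.52, 1.67 and 2.40. Its AAV-GP73 mean of 3.52 lay below the dimmest detected signal of each AAV-V array (3.76 to 3.94), so the size of a difference at this probe cannot be compared with that at 1755. The fitted value was 0.55 ± 0.36 in AAV-GP73, against -0.78 ± 0.36 in AAV-V HFD, where the sign turned to 0.18 and 0.56 when the arrays were scaled on all probes or on spike-in controls. AAV-GP73 lay 1.33 ± 0.36 above AAV-V HFD with no overlap. Both probe sequences are shown because one probe of this mRNA was bright on every array and the other dim. The capitals in the downstream window mark AATAAA, the signal that directs the cutting of most mammalian mRNAs and the addition of their poly(A) tail.

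Ldha position 351: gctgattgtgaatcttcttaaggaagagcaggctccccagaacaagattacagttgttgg
Ldha position 1755, 30 bases: agtgtcatgccaAATAAAaccttgaacagt

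Hexokinase 1 (Hk1), which phosphorylates glucose in most tissues but is a minor form in hepatocytes, was also read at places far apart. Its probe at position 4126, the farthest downstream (chr10:61731230-61731288, mm9, minus strand), read 7.61, 7.79 and 7.05 in AAV-V, 8.48, 8.17 and 8.55 in AAV-GP73, and 8.41, 8.53 and 7.91 in AAV-V HFD. Both other groups lay above AAV-V without overlap, by 0.92 ± 0.30 and 0.80 ± 0.30, both less than 2-fold. The Hk1 probe at position 2624 of another transcript (ENSMUST00000142527, chr10:61759854-61759913, mm9, minus strand) lies upstream of it on the chromosome. There AAV-V read 4.70, 4.88 and 4.75, AAV-GP73 3.48, 2.81 and 2.65, and AAV-V HFD 3.84, 4.55 and 4.81. AAV-GP73 was below every other array, by 1.79 ± 0.33 against AAV-V (3.47-fold lower) and by 1.42 ± 0.33 against AAV-V HFD (2.68-fold lower). Against AAV-V this became -0.80 with scaling on all probes, -0.12 on spike-in controls and -0.40 with normexp background correction. Unscaled signals overlapped, at 12.9 to 14.7 in AAV-V and 9.54 to 14.9 in AAV-GP73. AAV-V HFD overlapped AAV-V, with a value of -0.37 ± 0.33 that turned to 0.58 and 0.96 under scaling on all probes and on spike-in controls.

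The difference at this upstream Hk1 probe was the 1 member call between AAV-GP73 and AAV-V HFD. That call was lost when AAV-V 1 or 3, AAV-GP73 2 or 3, or AAV-V HFD 2 or 3 was left out of the fit, although the value stayed between -1.70 and -1.22, and with normexp the value was -0.29. The upstream window lacks AATAAA, and the downstream window holds it.

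Hk1 position 2624, 30 bases: aatacaaaatgtaatgtccaatctaagtcc
Hk1 position 4126, 30 bases: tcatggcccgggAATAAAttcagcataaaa

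Glucose-6-phosphate isomerase (Gpi1) makes fructose-6-phosphate from glucose-6-phosphate. Of its 4 probes, 2 were tested, at positions 1995 and 1999 of the transcript (chr7:34987178-34987237 and chr7:34987174-34987233, mm9, minus strand), and they overlap by 56 bases, so they are nearly 1 measurement. They differ by 1 base within that overlap, G20T, counted from 1 at the 5′ end of the probe at position 1995. The windows below show that base in capitals.

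Gpi1 position 1995, around the differing base: tgttgttctgacctGtatttcacaccccag
Gpi1 position 1999, around the differing base: tgttgttctgacctTtatttcacaccccag

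At position 1995, AAV-V read 4.70, 5.01 and 4.57, AAV-GP73 5.73, 6.09 and 6.27, and AAV-V HFD 5.50, 5.60 and 6.05. AAV-V lay below all other arrays. Gpi1 was 1.27 ± 0.28 higher in AAV-GP73 (2.42-fold) and 0.96 ± 0.28 higher in AAV-V HFD, and at position 1999 the values were 1.18 ± 0.26 and 0.91 ± 0.26. The 2 overlapping probes differed from each other in their response by -0.10 ± 0.11 and -0.05 ± 0.15. Position 1515 (chr7:34987856-34989053, mm9) was above background on 1 array only.

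Triosephosphate isomerase (Tpi1) interconverts the 2 triose phosphates. Its probes gave the widest disagreement within 1 gene. At position 539 (chr6:124762454-124762513, mm9, minus strand), AAV-V read 9.14, 9.07 and 9.12, AAV-GP73 6.88, 7.22 and 6.70, and AAV-V HFD 7.53, 6.86 and 7.55. No other array reached the AAV-V level, and the difference was -2.18 ± 0.28 (4.53-fold lower) for AAV-GP73 and -1.80 ± 0.28 (3.48-fold lower) for AAV-V HFD. These became -1.19 and -0.85 with scaling on all probes and -0.51 and -0.46 on spike-in controls. The unscaled signal was 250 to 304 in AAV-V, 156 to 202 in AAV-GP73 and 174 to 312 in AAV-V HFD, which overlapped AAV-V. At position 1204 (chr6:124760947-124761006, mm9, minus strand) the order was the opposite, with 3.75, 2.84 and 2.16 in AAV-V, 5.28, 5.85 and 5.84 in AAV-GP73, and 5.37, 5.38 and 6.17 in AAV-V HFD.

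That downstream Tpi1 probe was well above background on 0 AAV-V arrays and on all arrays of the other groups, so its difference is a bound. Under the scaling used, it was at least 3.49-fold higher in AAV-GP73 and at least 3.44-fold higher in AAV-V HFD. Each AAV-V array was taken at the lowest signal of its probes well above background, or at the probe's own signal if higher. With normexp background correction the values were 0.68 and 0.74, less than 2-fold, and the probe was not called in either comparison. The probe between them, at position 634 (chr6:124761923-124761982, mm9, minus strand), was detected on 1, 3 and 3 arrays, and its groups overlapped. Its values of -0.08 ± 0.47 and -0.28 ± 0.47 changed sign with the scaling. Positions 539 and 634 are shown whole, and 30 bases of position 1204.

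Tpi1 position 539: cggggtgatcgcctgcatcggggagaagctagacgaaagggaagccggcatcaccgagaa
Tpi1 position 634: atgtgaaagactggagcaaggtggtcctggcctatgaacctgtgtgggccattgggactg
Tpi1 position 1204, 30 bases: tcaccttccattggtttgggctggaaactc

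Glyceraldehyde-3-phosphate dehydrogenase (Gapdh) oxidises the triose phosphate, and its mRNA is widely used as a reference, in this study as the internal control of quantitative PCR. Its 7 probes fell into upstream probes that were lower than in AAV-V and downstream probes that were higher. The probe at position 581 (chr6:125112979-125113038, mm9, minus strand) read 8.43, 7.99 and 8.34 in AAV-V, 6.43, 6.90 and 6.54 in AAV-GP73, and 6.38, 5.77 and 6.53 in AAV-V HFD. Neither of the other groups overlapped AAV-V. Its difference was -1.63 ± 0.29 (3.10-fold lower) for AAV-GP73 and -2.03 ± 0.29 (4.08-fold lower) for AAV-V HFD, and the first turned to 0.04 when arrays were scaled on spike-in controls. The unscaled signals of this probe overlapped, at 118 to 177 in AAV-V, 115 to 162 in AAV-GP73 and 81.6 to 141 in AAV-V HFD.

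The probe at position 1324 (chr6:125111908-125111967, mm9, minus strand) moved the other way, from 6.68, 7.17 and 7.01 in AAV-V to 7.95, 8.46 and 8.36 in AAV-GP73 and 7.64, 7.81 and 8.27 in AAV-V HFD. Here AAV-V lay lowest throughout. The difference was 1.30 ± 0.29 (2.46-fold higher) in AAV-GP73 and 0.95 ± 0.29, less than 2-fold, in AAV-V HFD. Its unscaled signal was 50.9 to 70.4 in AAV-V, 329 to 560 in AAV-GP73 and 315 to 337 in AAV-V HFD.

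In the order of the listed positions, the Gapdh differences in AAV-GP73 were -0.86 at position 346, -0.22 at 429, -1.63 at 581, 0.87 at 930, 1.13 at 1087, 1.30 at 1324 and 1.36 at the last probe. In AAV-V HFD the same probes stood at -1.05, -0.58, -2.03, 0.73, 0.79, 0.95 and 1.01. The last probe is listed at position 1182 of another transcript record (BC083079), and it was placed by 17 bases that it shares without mismatch with the probe at 1324. Of its 60 bases the files place 8 only, at chr6:125111858-125111865 (mm9, minus strand). Of the probe listed at 1087, the files place 19 bases only, at chr6:125111848-125111866 (mm9, minus strand), which is downstream of the probe at 1324, so its place in this order is uncertain. The signs at 346 and 429 turned under spike-in scaling in both comparisons, and at 429 under scaling on all probes in both as well, while those of the 4 downstream probes held under all 6 scalings tried. At 346, scaling on all probes turned the sign in AAV-GP73 only, to 0.13. RefSeq lists pseudogene copies of Gapdh, Pgk1 and Ldha, and the part of such copies in a probe's signal was not tested.

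Gapdh position 346: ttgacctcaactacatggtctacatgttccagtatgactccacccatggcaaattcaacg
Gapdh position 429: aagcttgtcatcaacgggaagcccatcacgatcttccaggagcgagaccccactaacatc
Gapdh position 581: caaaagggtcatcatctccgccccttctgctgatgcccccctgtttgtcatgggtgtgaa
Gapdh position 1324, 30 bases: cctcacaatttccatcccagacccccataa
Gapdh last probe, 30 bases: ttgaataccatcAATAAAgtttgctgcact

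**Figure D2:**
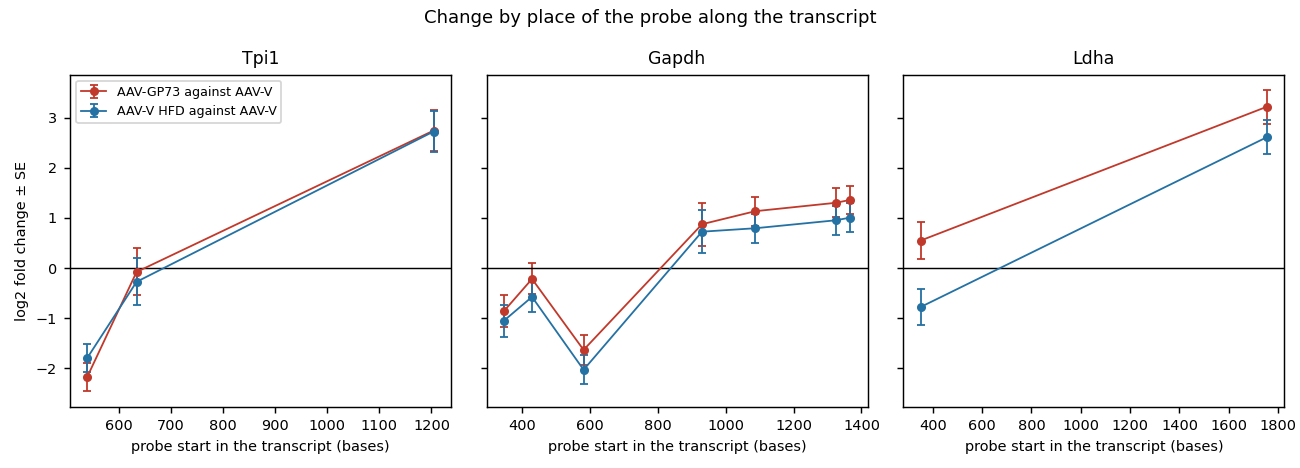
Difference from AAV-V (y axis, log2, with its SE) against the position of each probe in the transcript (x axis, bases) for Tpi1, Gapdh and Ldha, with AAV-GP73 and AAV-V HFD drawn separately. Values lie below 0 for Tpi1 at 539 and Gapdh up to 581 and above 0 for Tpi1 at 1204, Gapdh from 930 on and Ldha at 1755; the signs at Gapdh 346, 429 and 581, Tpi1 634 and Ldha 351 turned under at least 1 other scaling.

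Phosphoglycerate kinase (Pgk1) makes the first ATP of the pathway. Its 1 tested probe, at position 1701 (chrX:103398915-103398974, mm9, plus strand), read 5.42, 6.34 and 5.91 in AAV-V, 7.22, 7.84 and 7.83 in AAV-GP73, and 7.05, 7.09 and 7.38 in AAV-V HFD. AAV-V lay below all other arrays. Pgk1 was 1.74 ± 0.31 higher in AAV-GP73 (3.33-fold) and 1.28 ± 0.31 higher in AAV-V HFD (2.43-fold). The other Pgk1 probe is placed on the opposite strand and was not detected on any array.

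Pgk1 position 1701, 30 bases: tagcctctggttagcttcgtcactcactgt

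Enolase 1 (Eno1), which makes phosphoenolpyruvate, stood apart as a downstream probe that was lower. At position 1721 (chr4:149622928-149622987, mm9, plus strand) it read 7.16, 7.29 and 7.81 in AAV-V, 6.57, 6.55 and 6.52 in AAV-GP73, and 6.38, 6.23 and 6.82 in AAV-V HFD. All AAV-V arrays were above the rest, by less than 2-fold. The values were -0.87 ± 0.28 and -0.94 ± 0.28, and both turned positive under scaling on all probes (0.12 and 0.01) and on spike-in controls (0.80 and 0.39). This probe holds AATAAA, as Ldha at 1755, Hk1 at 4126, both Gpi1 probes and the last Gapdh probe do.

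Eno1 position 1721, 30 bases: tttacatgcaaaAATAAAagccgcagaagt

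**Figure D3:**
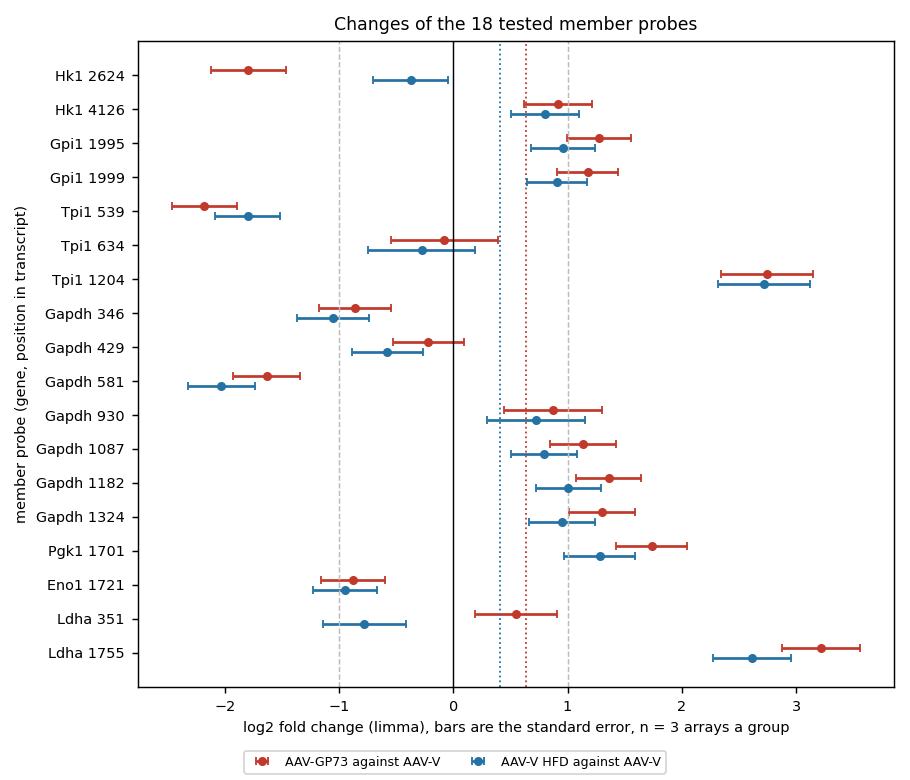
Difference from AAV-V on the log2 scale with its SE for the 18 tested member probes, named by gene and position and drawn separately for AAV-GP73 and AAV-V HFD. Dotted lines mark the median of all 6591 tested probes (0.64 and 0.41) and dashed lines a 2-fold difference; Ldha at 1755 and Tpi1 at 1204 lie farthest to the higher side, and Tpi1 at 539, Gapdh at 581 and, in AAV-GP73, Hk1 at 2624 to the lower side, with Gapdh at 581 changing sign in AAV-GP73 under spike-in scaling.

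A shift of a whole array on the log2 scale cancels in the gap between 2 probes of a gene, and this gap was computed array by array as downstream minus upstream. All 27 pairs of tested probes within the 5 genes that had more than 1 were computed. Against AAV-V, the gap in AAV-GP73 was larger by 4.92 ± 0.50 (SE, n = 3 per group) for Tpi1 from 539 to 1204, by 2.67 ± 0.29 for Ldha and by 2.71 ± 0.33 for Hk1. With the HFD these gaps were larger by 4.52 ± 0.52, 3.39 ± 0.42 and 1.17 ± 0.47. Normexp with quantile normalization, which is not a shift of whole arrays, gave 2.29, 2.42 and 1.04 in AAV-GP73 and 2.07, 2.08 and 0.74 with the HFD, in the same order. For Gapdh, the probes were split by the sign of their AAV-GP73 values into the 3 up to 581 and the 4 from 930 on. A larger gap in AAV-GP73 under the scaling used was thus fixed in advance for all 12 pairs. It was larger by 1.09 to 2.99 in AAV-GP73 and, also in all 12, by 1.30 to 3.04 with the HFD. With normexp these ranges were 0.53 to 2.46 and 0.61 to 2.43. Within the upstream probes the change of the gap was 0.64 and 0.48 from 346 to 429 in AAV-GP73 and with the HFD. It was -0.77 and -0.98 from 346 to 581, and -1.42 and -1.45 from 429 to 581. Apart from Gapdh 346 to 429, no array overlapped with AAV-V in the pairs named here. For Tpi1 and Ldha 1 of the probes was not well above background in AAV-V, so the size of their gap there is uncertain. Between AAV-GP73 and AAV-V HFD the gap differed by 0.40 ± 0.33 for Tpi1, -0.72 ± 0.35 for Ldha and -0.25 to 0.16 for the 12 Gapdh pairs, all with overlapping arrays, and by 1.54 ± 0.50 for Hk1, without overlap.

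The same measurement was made across the array for transcripts with a pair of probes at least 200 bases apart and detected on all 9 arrays, of which there were 79. The probe nearer the 3′ end had the higher change in 70.9% of them in AAV-GP73 against AAV-V, with a median gap of 0.46, and in 74.7% in AAV-V HFD against AAV-V, with a median gap of 0.33. In AAV-GP73 against AAV-V HFD it did so in 44.3%, with a median gap of -0.02. Gapdh was the 1 member among these transcripts, with a gap between positions 429 and 1324 of 1.52 in AAV-GP73 against AAV-V and of 1.53 with the HFD. The labelling kit used for all arrays copies mRNA from the poly(A) tail. RNA integrity is not given in the sources used here, and its part in the values of the members was not tested.

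Among all probes on the array, 9.77% hold AATAAA, searched on the probe strand only, and among tested probes 15.5% do. In AAV-GP73 against AAV-V the median log2 fold change was 0.93 over the tested probes with it and 0.55 over those without, and in AAV-V HFD against AAV-V 0.84 and 0.30. Against AAV-V HFD, AAV-GP73 had medians of 0.12 and 0.10. The 6 tested members with AATAAA (Hk1 at 4126, both Gpi1 probes, the last Gapdh probe, Eno1 and Ldha at 1755) had medians of 1.22 and 0.93, and 5 of them were above 0. For the 12 without it the medians were 0.23 and -0.32. A match to these letters is a description of a probe and not a site of cleavage.

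**Figure D4:**
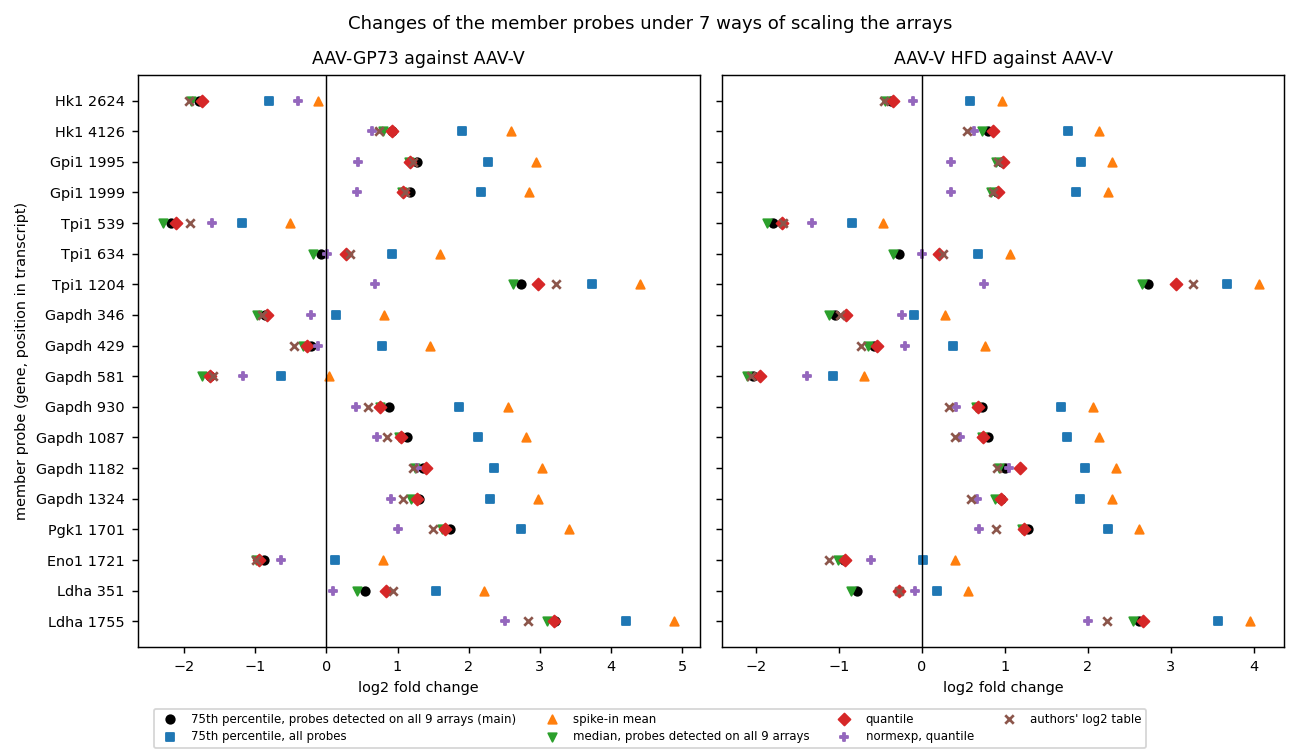
Log2 fold change against AAV-V (x axis) of the 18 tested member probes (y axis) under the scaling used in the text and 6 others, for AAV-GP73 and AAV-V HFD. In AAV-GP73 13 of the 18 probes and in AAV-V HFD 12 of the 18 kept their sign in all of them, Ldha at 1755 among them. Eno1, Tpi1 at 634 and Gapdh at 346 and 429 changed sign in both comparisons, Gapdh at 581 in AAV-GP73 only, and Hk1 at 2624 and Ldha at 351 in AAV-V HFD only.

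Of the other enzymes that can carry out steps of glycolysis, 19 genes were on the array and 8 were tested with 10 probes. In AAV-GP73 against AAV-V 3 of these probes were called higher and 3 lower, and in AAV-V HFD against AAV-V 1 was higher and 2 were lower. Aldolase A (Aldoa), which splits fructose bisphosphate, rose by 1.25 ± 0.26 in AAV-GP73 (limma, adjusted p = 0.0018), and its value in AAV-V HFD was 0.84 ± 0.26. The phosphoglycerate mutase Pgam1 was detected on 0 AAV-V arrays and all others at position 1574. It was at least 2.33-fold higher in AAV-GP73 and at least 1.90-fold higher in AAV-V HFD (adjusted p = 0.00015 and 0.00061). Folds and bounds given for this and the later lists are those of the scaling used.

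Under the scaling used, enzymes of the same list also fell. Hk3, a hexokinase best known from white blood cells, fell by 2.23 ± 0.35 in AAV-GP73 and by 1.83 ± 0.35 in AAV-V HFD (adjusted p = 0.0003 and 0.0016). Pgam2, the mutase of muscle, fell by 2.34 ± 0.33 and 1.22 ± 0.33 (adjusted p = 0.00018 and 0.0094). The pyruvate kinase Pkm was detected on all arrays, with values of -0.74 ± 0.41 and -0.90 ± 0.41 that did not pass. Of 3 tested neutrophil marker probes, 1 was called lower and 0 higher in each comparison. Of 5 neutrophil marker genes, 1 was detected on all arrays of AAV-V, 2 of AAV-GP73 and 3 of AAV-V HFD. The part of such cells in the Hk3 values was not tested.

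The hexokinases Hk2 and Hkdc1, the phosphofructokinase Pfkm and the enolase Eno2 were among 9 genes of this list that no array detected, and Pfkp and Eno3 were detected without filling a group.

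Of 19 genes that handle lactate and pyruvate, 7 were tested with 9 probes, of which 4 were called higher and 1 lower in each comparison with AAV-V. Ldhd, a mitochondrial dehydrogenase of D-lactate, was detected on 0 AAV-V arrays and on all others, and was at least 1.73-fold higher in AAV-GP73 and at least 1.84-fold higher in AAV-V HFD (adjusted p = 0.00011 and 0.00023). The subunits of the carrier that brings pyruvate into mitochondria rose together: Mpc1 by 1.51 ± 0.30 and 1.65 ± 0.30 at its 2 probes in AAV-GP73, and by 1.30 ± 0.30 and 1.49 ± 0.30 in AAV-V HFD (adjusted p from 0.00079 to 0.0041). Mpc2 was detected on 0 AAV-V arrays and was at least 2.85-fold higher in AAV-GP73 and at least 1.95-fold higher in AAV-V HFD (adjusted p = 0.00082 and 0.011). Pdk1, a kinase that shuts off pyruvate dehydrogenase, fell by 1.61 ± 0.25 and 1.62 ± 0.25 at position 402 (adjusted p = 0.00032 and 0.00067), while its probe at position 3195, well above background on 0 AAV-V arrays, stood at 0.44 ± 0.30 and -0.09 ± 0.30. Pdhb, a subunit of pyruvate dehydrogenase detected on all arrays, stood at 0.02 ± 0.32 and 0.32 ± 0.32. Ldhb, which encodes the other main lactate dehydrogenase subunit, and the lactate carriers Slc16a1 and Slc16a3 were not detected on any array.

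Among 17 genes for glucose entry and the control of flux, 6 were tested with 1 probe each. Gpd1, which links the triose phosphates to glycerol for triglyceride synthesis, rose by 3.43 ± 0.49 in AAV-GP73 and by 2.83 ± 0.49 in AAV-V HFD (adjusted p = 0.00019 and 0.001), the largest differences of the 3 pathway lists. It was well above background on 1 AAV-V array, at 3.20, 4.57 and 3.23 in AAV-V against 6.28, 7.57 and 7.45 in AAV-GP73 and 7.13, 6.66 and 5.71 in AAV-V HFD, so AAV-V lay below both other groups, which overlapped each other. Gckr, which encodes a regulatory protein of liver glucose metabolism, rose by 1.47 ± 0.44 and 1.72 ± 0.44 (adjusted p = 0.013 and 0.0074). Slc2a9, a urate carrier of the glucose transporter family, fell by 1.57 ± 0.28 and 1.24 ± 0.28 (adjusted p = 0.0006 and 0.0037). Fn3k, which removes sugars bound to proteins, was called higher in AAV-V HFD (adjusted p = 0.014), but it was well above background on 0 AAV-V arrays and its AAV-V HFD mean of 3.67 lay below the lowest signal detected there, so no fold is given. Khk, the enzyme that phosphorylates fructose, was detected on all arrays and stood at 0.20 ± 0.32 and -0.24 ± 0.32. Slc2a2, the main glucose carrier of hepatocytes, was among 8 genes of this list detected on no array.

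Over the 3 lists together, 25 probes of 21 genes were tested. AAV-GP73 had 9 called higher and 5 lower, beside 33.9% and 17.9% of all tested probes. AAV-V HFD had 8 and 4, beside 25.0% and 16.9%. Between these groups 1 was lower, beside 2.67% of all tested probes called in either direction. The median log2 fold change of the 25 probes was 0.75 in both comparisons with AAV-V, beside 0.64 and 0.41 for all tested probes. The lists were drawn up with earlier results of these arrays known, and no pathway response is read from these counts.

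**Figure D5:**
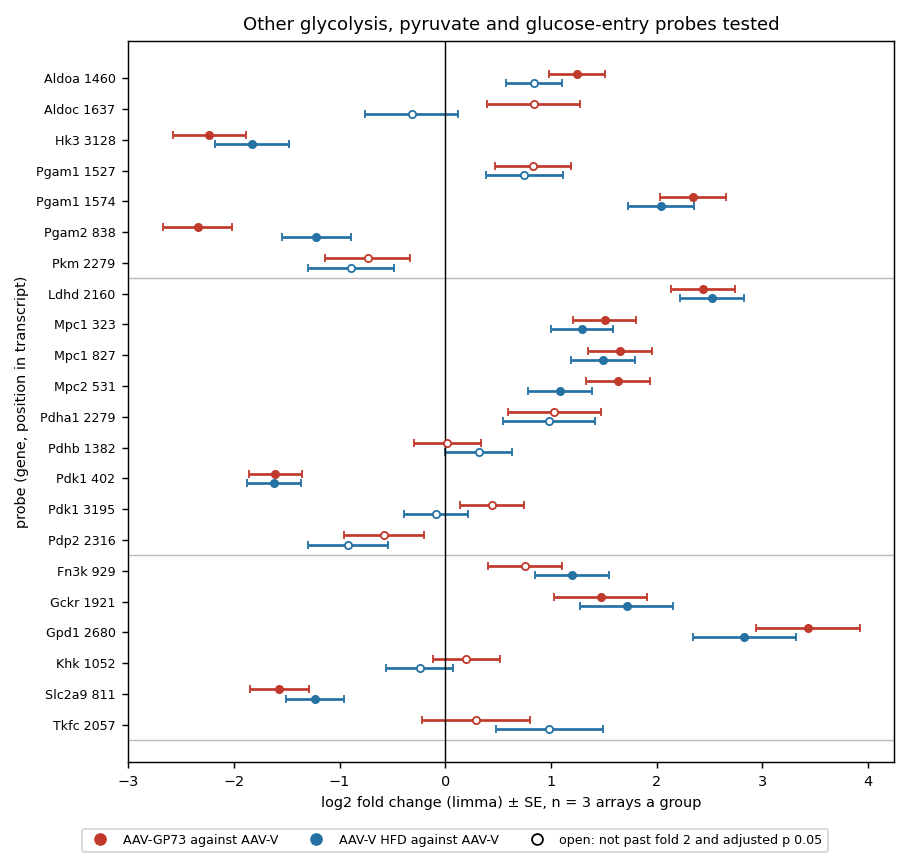
Difference from AAV-V (log2, with its SE) of 22 of the 25 tested probes of other glycolysis enzymes, lactate and pyruvate handling, and glucose entry and control of flux, drawn separately for AAV-GP73 and AAV-V HFD, with filled points for probes called at 2-fold and an adjusted p under 0.05. Gpd1 and Ldhd reach farthest to the higher side, and Pgam2, Hk3 and Pdk1 at position 402 to the lower side; all of these were called in both comparisons.

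Factors known to act on glycolysis genes were mostly dim. Of 13 such genes, 7 were tested with 9 probes, and Hif1a, Arnt, Myc, Mlx, Mlxip and Usf1 were detected on no array. Hnf4a, a transcription factor of hepatocytes, rose by 2.46 ± 0.33 in AAV-GP73 and by 1.40 ± 0.33 in AAV-V HFD (adjusted p = 0.00015 and 0.0046). Txnip, which glucose induces and which limits glucose uptake, was detected on 0 AAV-V arrays and was higher by at least 2.14-fold with GP73 (adjusted p = 0.00045), with 0.92 ± 0.42 in AAV-V HFD. Srebf1, a factor that drives lipid synthesis, was well above background in AAV-V HFD alone and there exceeded AAV-GP73 by at least 1.98-fold (adjusted p = 0.0051). Mlxipl, the glucose-sensing factor ChREBP, stood at 0.29 ± 0.35 and 0.25 ± 0.35.

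HIF-1, the factor that responds to low oxygen, has Ldha, Pgk1 and several other members among its known targets, and 15 further target genes were on the array. Of the 6 tested, AAV-GP73 had 5 called higher and 1 lower, and for AAV-V HFD these counts were 3 and 1, beside shares over all tested probes of 33.9% higher and 17.9% lower with GP73, and of 25.0% and 16.9% with the HFD. Bnip3, which marks mitochondria for removal, rose by 2.46 ± 0.31 and 2.00 ± 0.31 (adjusted p = 0.00012 and 0.00064). Ak4, a mitochondrial adenylate kinase, was well above background on 0 AAV-V arrays and was at least 1.71-fold higher in AAV-V HFD (adjusted p = 0.00026). In AAV-GP73 it was called higher (adjusted p = 0.00089) with a mean of 3.75, below the lowest signal detected in AAV-V, so no fold is given. Higd1a rose by 1.28 ± 0.32 and 1.35 ± 0.32 (adjusted p = 0.0045 and 0.0048), and Egln1, which marks HIF for destruction, was called higher in AAV-GP73 (adjusted p = 0.0098) with no fold for the same reason, at a mean of 3.16. Ndrg1 was higher by at least 1.36-fold in AAV-GP73 (adjusted p = 0.00028) and 2.04 ± 0.37 above AAV-V HFD (adjusted p = 0.014). Adm, which encodes the vessel-widening peptide adrenomedullin, went the other way, lower by at least 3.41-fold in AAV-GP73 and by at least 2.91-fold with the HFD (adjusted p = 2.8e-05 and 8.1e-05). Vegfa, Car9 and the other 7 genes of the list were not tested for want of signal.

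Some other genes that serve as references in quantitative PCR also differed between groups. Of 16 tested probes, AAV-GP73 had 6 called higher and 1 lower, and for AAV-V HFD these counts were 6 and 2. The same rule picked 33.9% of the 6591 probes as higher and 17.9% as lower with GP73. With the HFD it picked 25.0% and 16.9%. The median log2 fold change of this list was 0.68 with GP73 and 0.26 with the HFD, beside array-wide medians of 0.64 and 0.41. Nothing particular to reference genes is read from these counts. Hprt was at least 3.05-fold and at least 2.28-fold higher, and Sdha at least 2.42-fold and at least 1.76-fold higher (adjusted p from 5.6e-05 to 0.00034). Actb rose by 1.04 ± 0.29 and 1.45 ± 0.29 (adjusted p = 0.0089 and 0.0021), and Ywhaz fell by 1.36 ± 0.32 and 1.22 ± 0.32 (adjusted p = 0.0036 and 0.0089). Ppia rose at position 644, by 1.33 ± 0.26 and 1.03 ± 0.26 (adjusted p = 0.001 and 0.0065), and stood at 0.48 ± 0.26 and 0.22 ± 0.26 at position 429. Rpl13a and Rplp0, both for ribosomal proteins, stood at -0.29 ± 0.30 and -0.13 ± 0.39 in AAV-GP73. Directions in these lists are those of the scaling used, and scaling on all probes or on spike-in controls raised the median of all tested probes in AAV-GP73 from 0.64 to 1.63 and 2.31, and in AAV-V HFD from 0.41 to 1.36 and 1.74.

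The genes whose pattern over the 9 arrays was most like that of Ldha at 1755 were ranked by Pearson correlation among the brightest probes of 2435 genes detected on all arrays. Genes of the lists and markers used here were then left out of the ranking. Among the remaining genes Atf5, a stress-response transcription factor, came first (r = 0.983), followed by Grhpr, which reduces glyoxylate (r = 0.978). Next came an unnamed transcript listed as ENSMUST00000064353 (r = 0.972), the proteasome subunit gene Psma3 (r = 0.968) and Scp2, a sterol carrier (r = 0.967). Like Ldha, Atf5 stood 3.06 and 2.41 above AAV-V, Grhpr 3.00 and 2.60, and Scp2 3.11 and 2.54. All points share the arrays and their brightness, so these values only describe likeness.

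Promoters bear on the members because several are textbook targets of factors that read the letters ACGTG (the core of a hypoxia response element) or CACGTG (the E-box that MYC and USF proteins read, which contains ACGTG). RefSeq (GRCm38.p6) gave 14 promoters for the 9 members, and the 250 bases before each start were searched on both strands. ACGTG was found in 16.6% of 32851 promoters of the same length and CACGTG in 6.02%. Of the 14 member promoters, 2 held ACGTG, 1 of Ldha and 1 of Pgk1. The Ldha promoter (chr7:46845554-46845803, GRCm38.p6, plus strand) held it at 3 places, 2 of them as CACGTG and the nearest 34 bases from the start, and the Pgk1 promoter (chrX:106186850-106187099, GRCm38.p6, plus strand) at 2 places. Capitals in the sequences mark these matches, ACGTG itself or its complement CACGT. A match says nothing on whether a factor was bound, and the other windows say only that these letters are not in them.

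Ldha promoter: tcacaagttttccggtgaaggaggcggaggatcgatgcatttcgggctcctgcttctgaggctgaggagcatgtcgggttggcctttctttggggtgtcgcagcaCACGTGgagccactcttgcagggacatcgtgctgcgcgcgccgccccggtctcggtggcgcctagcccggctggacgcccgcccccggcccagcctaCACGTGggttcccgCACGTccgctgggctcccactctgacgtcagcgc
Pgk1 promoter: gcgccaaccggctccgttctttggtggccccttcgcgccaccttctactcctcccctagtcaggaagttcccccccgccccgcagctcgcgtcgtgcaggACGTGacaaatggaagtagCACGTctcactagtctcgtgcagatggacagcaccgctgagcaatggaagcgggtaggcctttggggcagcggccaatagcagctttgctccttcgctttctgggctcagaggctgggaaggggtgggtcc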

How the data were processed

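Liver RNA of 9 samples, grouped by the labels, was measured on 1-colour arrays. Each intensity file deposited by the authors came from Agilent Feature Extraction (12.0.3.1 per the file headers, 10.7 in the submitters' processing notes, which also name limma), background-subtracted within each array and not scaled between arrays. A log2 value for every probe name and array, deposited by the authors with a normalization that is not given in the sources used here, served as an alternative. Control spots and spots marked as outliers were left out, spots of a probe were averaged, and each array's log2 signals were aligned at the 75th percentile of the 2666 probes well above background on every one of the 9 arrays. Between 98 and 151 spots per array were marked and 0 were saturated; the number of arrays limits the precision.

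All 3 groups were fitted together with limma 3.58.1 (R 4.3.3, data.table version 1.17.8), with Benjamini-Hochberg adjustment over the 6591 tested probes, and the script was tested on simulated data. With 3 arrays against 3, an exact permutation test cannot go below p = 0.1. Probe coordinates, positions in transcripts and gene names are those of the scanner output (mm9). Promoters are from RefSeq. No annotation of mm9 was used, so exons and UTRs are not given for the probes. The members and lists were chosen with earlier results of these data known. All member probes were named, and of the other lists the genes with a called probe and those needed to say what was not detected or did not pass. Also named were the 5 genes outside the lists that were most like Ldha. Some genes of these lists enter the counts and are not reported here by name. Alternatives were other scalings, background correction, filters, tests and arrays left out. Differences between arrays of a group set the errors, which may be technical.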

Additional observations from a re-analysis of the deposited data

How the results depend on the processing

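Ldha at 1755, Pgk1, Gpi1, Tpi1 at 539 and 1204 and the downstream Gapdh probes kept their direction in every scaling and with every array left out. Taken relative to the median of all tested probes, some downstream Gapdh values fell below 0 with the deposited log2 values. These were -0.20 at 930 in AAV-GP73, and -0.29 at 930, -0.23 at 1087 and -0.03 at 1324 in AAV-V HFD. The last Gapdh probe stayed above 0, at 0.43 and 0.29. The difference at the Gapdh probe at 581 in AAV-GP73 turned to 0.039, and that at the Gapdh probe at 346 in AAV-V HFD to 0.28, when arrays were scaled on spike-in controls; the cause was not tested. Of all tested probes called in AAV-GP73 and AAV-V HFD, 65.4% and 59.6% were higher, which became 91.3% and 95.2% with the 75th percentile of all probes, 98.2% and 98.3% with spike-in controls, 41.6% and 44.6% with normexp, and 70.2% and 71.5% with quantile normalization.

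The number of member probes called in AAV-GP73 against AAV-V, 11, became 5 with normexp, 22 without the filter on dim probes and 5 with the brightest probe of each gene only. With the percentile of all probes 11 were called higher and 1 lower, and with spike-in controls 13 higher and 0 lower, in place of 8 and 3. For AAV-V HFD against AAV-V, 7 became 11 with the percentile of all probes and 11 with spike-in controls, 4 with normexp, 17 without the filter and 4 with the brightest probe. The 3 lower calls among the 7 became 1 with the percentile of all probes and 0 with spike-in controls. For the 3 pathway lists, 14 in AAV-GP73 became 2 with normexp, 86 without the filter and 6 with probes detected on all 9 arrays, and 12 in AAV-V HFD became 1, 83 and 4. Filters and the brightest-probe rule change how many probes are tested. Between AAV-GP73 and AAV-V HFD, the 1 member call became 0 with quantile normalization, normexp, the authors' table, no filter, the brightest probe, the replicate block and the methods' t-test after Benjamini-Hochberg, and 2 with that test unadjusted; with spike-in controls Hk1 at 2624 was replaced by Ldha at 351. The 1 list call became 0 with the percentile of all probes, quantile normalization, normexp, the authors' table, probes detected on all 9 arrays and the adjusted t-test, and 2 with spike-in controls and with the unadjusted t-test.

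Leaving out 1 array in turn gave 11 to 12 member calls in AAV-GP73, 6 to 10 in AAV-V HFD and 0 to 1 between them, and 12 to 17, 11 to 13 and 0 to 1 list calls. With the replicate block there were 11, 7 and 0 member calls and 15, 12 and 1 list calls. Same-numbered arrays deviated together in 2 of 9 cases (correlations from -0.105 to 0.167), so they share only a number. Limma called the single member and list probes between AAV-GP73 and AAV-V HFD among 176 in all, and 1065 had an unadjusted p under 0.05.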
